A study of Arabidopsis thaliana with 36 samples.

Results

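The genes described here are 41 of the 32833 Arabidopsis thaliana loci in the count tables, those whose transcripts were low in the wild-type basal hypocotyl both at wounding and 8 h later and high at 16 h. They were chosen by their mean CPM, counts scaled to 1000000 per library, in the 9 WT basal libraries. A member had a mean of at least 10 CPM at 16 h, and its 16 h mean plus 0.5 was at least 4 times both its 0 h and its 8 h mean plus 0.5. Of the 32833 loci, 9664 had a 16 h mean of at least 10 CPM. The WT basal values are given as a description, with no test, because they selected the members. All tests are on the other 27 libraries, fitted together with the WT basal ones.

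Seedlings were grown in low light for 5 days and excised above the junction of root and shoot, so the hypocotyl, the seedling stem, was left without a root and could form adventitious roots at its base. Segments of 2 to 3 mm were cut from the basal region and from the medial region at 0, 8 and 16 h after wounding. Both regions were taken from WT, which is Col-0, and from ahk3 ahk4, which carries mutations in a pair of receptors of the plant hormone cytokinin. Each of the 12 groups of genotype, region and time had 3 biological replicates, 36 libraries of 3' mRNA tags (QuantSeq, which gives about 1 tag per transcript). The labels give 1 growth and excision protocol for all groups. The labels name no allele of ahk3 or ahk4 and no number of seedlings per replicate, and no group is an unwounded hypocotyl at 8 or 16 h, so the hour of sampling cannot be told apart from the time since wounding.

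A library held from 6136167 to 13557332 counts on gene loci. AHK3 (HK3 in the reference table), a mutated receptor, had 46.6 CPM or more in every WT library, the highest being 168, and 9.30 CPM or less in every ahk3 ahk4 library. AHK4 (WOL in that table) ranged over 2.36 to 14.5 CPM in WT and 0.106 to 2.25 in ahk3 ahk4. With no allele given, tags outside the disrupted part of a receptor gene would check nothing. The share of reads that aligned to more than 1 place ranged from 2.98% to 60.3% of a library and was 44.2% to 60.3% in ahk3 ahk4 basal at 0 h against 2.98% to 15.1% at 16 h. Root hair markers summed to at most 0.904 CPM in any library, and root meristem markers to at most 1.53 CPM. Replicate 1 of WT basal at 16 h stood apart from the other 2, being the lowest of the 3 for 35 of the 41 members, with a median of 0.681 of the mean of replicates 2 and 3. Without it the rule chose 45 loci, among them all 41. The labels call replicates biological but do not say whether they were separate sowings, so p-values measure the spread between these libraries. In bulk segments, fewer cells of a type and less RNA per cell cannot be told apart.

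Chloroplasts fix carbon dioxide in the Calvin cycle, in which Rubisco joins it to a sugar phosphate and further enzymes reduce the product and rebuild the acceptor. Its nuclear genes are known to respond to light, sugar and plastid state, and a side reaction of Rubisco feeds photorespiration, part of which runs in peroxisomes. Anthocyanins are red and purple flavonoid pigments that seedlings build under light, sugar and stress, through a set of late enzymes and a glutathione transferase that helps to bring them to the vacuole. Class III peroxidases are secreted enzymes that act on the cell wall with hydrogen peroxide.

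By their annotation, 10 members act in the Calvin cycle, 6 are other chloroplast proteins, 3 are peroxisomal, 4 act in anthocyanin formation and 3 are class III peroxidases. The other 15 are of mixed or unknown function, and among them the plastid ferritin FER1 was grouped apart from the 6 chloroplast proteins. In WT basal the ratio of 16 h to 0 h means (each plus 0.5) ran from 4.06 to 284 with a median of 12, and that to 8 h from 4.05 to 95 with a median of 8.65. The 16 h libraries lay above all 6 earlier ones for 39 members. The exceptions were ECS1 and AT2G25510, which were low in replicate 1 at 16 h and high in replicate 3 at 8 h. Together the 41 members took 0.0422% to 0.0501% of a library's counts at 0 h, 0.0506% to 0.0673% at 8 h and 0.348% to 0.609% at 16 h.

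Members just inside the ratio limit were AT4G16410, with smaller ratio 4.05, CRB with 4.06 and PRXQ with 4.08. Just outside it were AT1G32470 with 3.78, AT4G17560 with 3.61 and AT4G28080 with 3.59. At the level limit, AIG1 (10.7 CPM), AT2G18980 (10.9 CPM) and NdhO (11.6 CPM) were inside. AT1G74070 (9.67 CPM), AT1G78450 (8.29 CPM) and AT1G03940 (8.04 CPM) were outside.

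**Figure D1:**
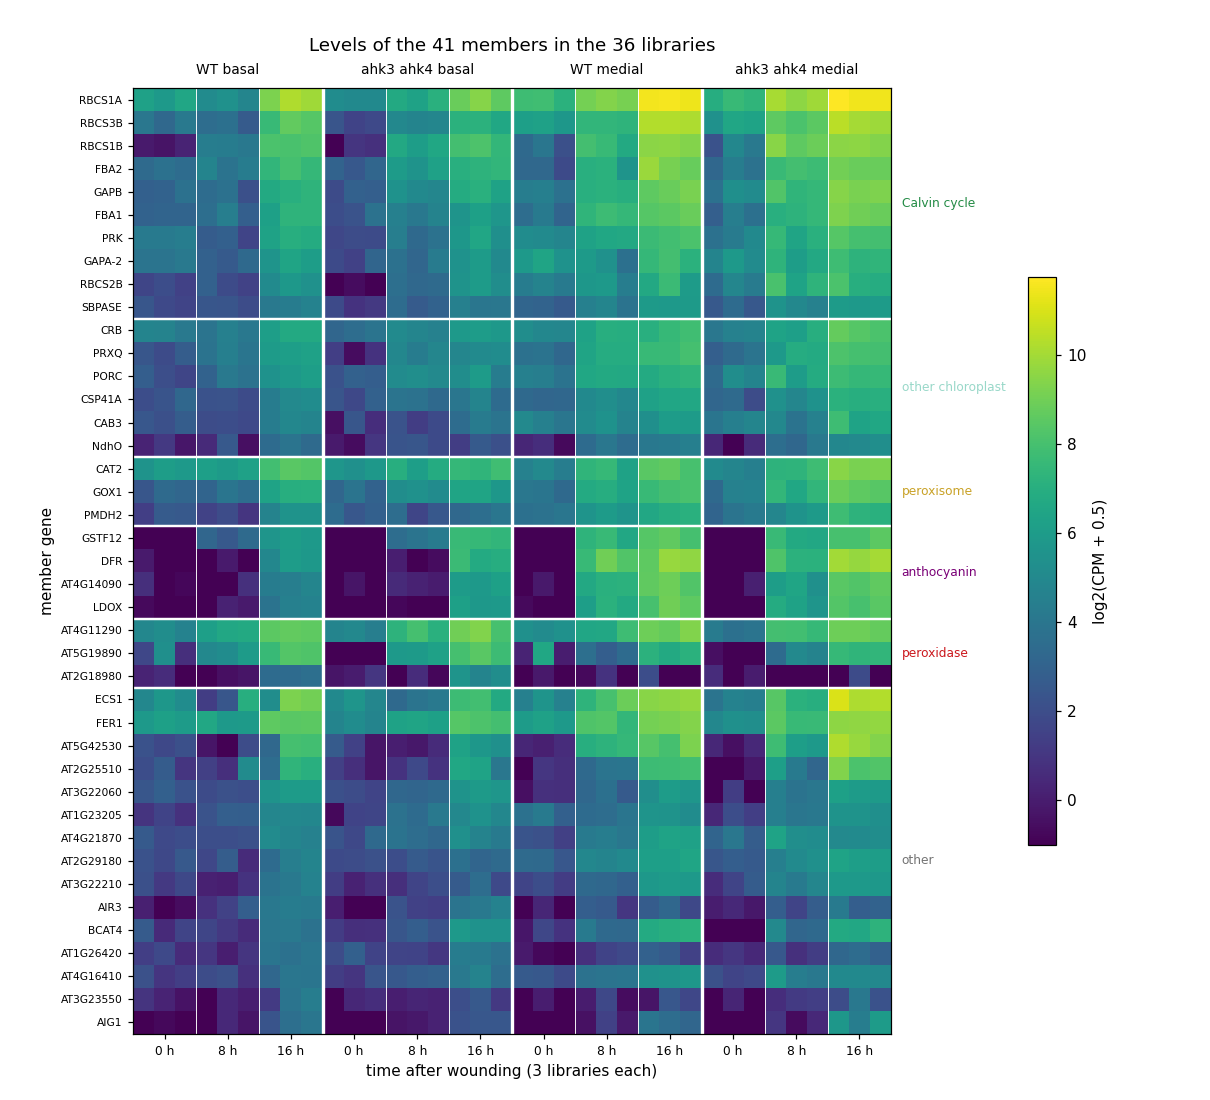
Level of each of the 41 members (rows, grouped by role) in each of the 36 libraries (columns, 3 per group, ordered by series and time), as log2(CPM + 0.5). The 16 h columns are the brightest of each series for most members, both medial series are brighter at 8 and 16 h than both basal ones for the chloroplast (other than Calvin cycle) and anthocyanin rows, and the anthocyanin rows are dark at 0 h in all 4 series.

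WT basal at 16 h, the group that chose these genes, was the group of their highest mean for 1 member, AT3G23550. The highest mean was that of ahk3 ahk4 medial at 16 h for 24 members, of WT medial at 16 h for 12 and of ahk3 ahk4 basal at 16 h for 4. Members took 1.25% to 1.37% of the counts in WT medial and 1.47% to 1.87% in ahk3 ahk4 medial at 16 h, and 0.307% to 0.453% in ahk3 ahk4 basal. At 8 h the shares were 0.358% to 0.448% in WT medial, 0.411% to 0.642% in ahk3 ahk4 medial and 0.102% to 0.11% in ahk3 ahk4 basal. At 0 h they were 0.0584% to 0.0985%, 0.0447% to 0.0789% and 0.0269% to 0.0291%. Every 8 h library of the medial series and of ahk3 ahk4 basal was above every 0 h library of its series. In WT basal this held too, by a small margin, with 0.0501% the highest at 0 h and 0.0506% the lowest at 8 h. There the rule itself kept both times low.

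Most members also rose to 16 h in the 3 series that did not choose them. All 41 passed the filter on low counts, and 19819 genes were tested in each comparison with edgeR's quasi-likelihood test at a Benjamini-Hochberg adjusted p under 0.05. In ahk3 ahk4 basal 29 of 41 members rose from 8 to 16 h and 0 fell, where 2.7% of all genes tested rose and 2.92% fell. Against 0 h 39 of 41 rose and 0 fell, against 24.7% and 22.2% of all genes. The median log2 fold change of the members was 1.76 against 8 h and 4.08 against 0 h, and that of all genes -0.02 and 0.04.

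In WT medial 29 of 41 rose from 8 to 16 h and 0 fell, with 10.4% of all genes higher and 7.94% lower. Against 0 h 39 rose and 0 fell (21.3% and 18% of all genes). In ahk3 ahk4 medial 25 rose from 8 to 16 h and 0 fell (5.04% and 5.81% of all genes), and 40 rose against 0 h and 0 fell (19.2% and 16.1%). Members' medians against 8 h were 1.45 in WT medial and 1.58 in ahk3 ahk4 medial, and against 0 h 4.08 and 4.38. With genes of 3 or fewer counts at 0 or 8 h set to their count-based fold, the 6 medians were the same. The 8 h and 0 h comparisons of a series share its 16 h libraries.

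From 8 to 16 h 13 members rose in all 3 of these series: RBCS1A, RBCS3B, FBA2, GAPB, CAT2, FER1, GSTF12, LDOX, AT4G14090, BCAT4, AT3G22060, AT2G25510 and AIG1. The 3 members that rose in none of them were PORC, NdhO and AT3G23550. Calls from 8 to 16 h were sensitive to single libraries: 16 of 29 in ahk3 ahk4 basal, 24 of 29 in WT medial and 18 of 25 in ahk3 ahk4 medial held in all 6 fits that left out 1 library. Without replicate 1 or replicate 3 of ahk3 ahk4 basal at 8 h the count in that series was 19 or 18. Against 0 h the corresponding numbers were 37 of 39, 37 of 39 and 40 of 40.

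**Figure D2:**
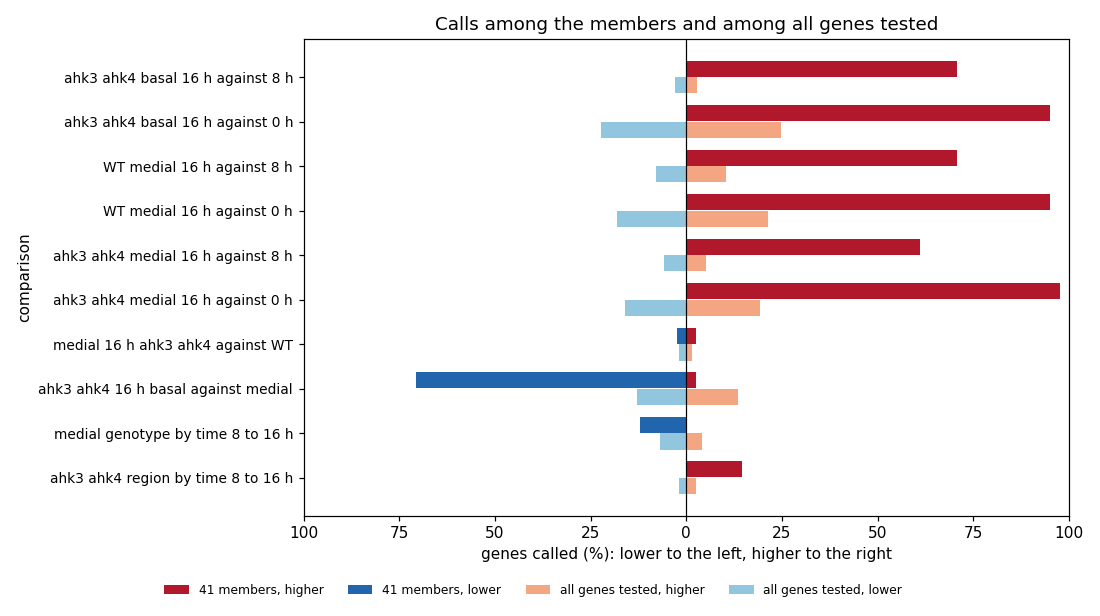
Share of genes called in each of the 10 tested comparisons, for the 41 members and for all 19819 genes tested; bars to the right are genes higher in the first-named group or with a more positive change, and bars to the left lower ones. In the 6 time comparisons 61.0% to 97.6% of the members were called higher and none lower, and in ahk3 ahk4 at 16 h 70.7% were lower in basal than in medial segments.

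Rubisco and the Calvin cycle made up the largest named group. RBCS1A (AT1G67090) encodes a small subunit of Rubisco. Its level in WT basal was 77.5, 58.7 and 91.8 CPM at 0 h, 34.8, 43.3 and 26.8 at 8 h and 600.0, 1209 and 981 at 16 h. The ahk3 ahk4 basal libraries had 36, 31.9 and 32.3, then 107, 81.2 and 133, then 457, 674 and 380.1 CPM. In WT medial it was 220.0, 225 and 138 at 0 h, 539, 669 and 559.8 at 8 h and 2910.4, 3058 and 2739 at 16 h, and in ahk3 ahk4 medial 121, 190.2 and 159, then 1066, 765 and 976, then 3409, 2801 and 2782. At 16 h every medial library was more than double every basal one, and the genotypes overlapped in both regions. At 8 h the WT basal libraries were all below the WT basal ones at 0 h, and in the other 3 series all were above. In WT basal the rule itself kept the 0 h and 8 h means low relative to 16 h, so this contrast between series is not free of the rule. From 8 to 16 h the log2 fold change was 2.16 ± 0.26 in ahk3 ahk4 basal, 2.31 ± 0.26 in WT medial and 1.58 ± 0.26 in ahk3 ahk4 medial, with adjusted p at most 6.49e-05 (± SE throughout for log2 fold changes).

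The other small subunit genes, RBCS3B (AT5G38410), RBCS2B (AT5G38420) and RBCS1B (AT5G38430), lie next to each other in the order of loci, RBCS2B and RBCS1B with no locus between them and RBCS3B and RBCS2B with 2. They are near-identical copies, so how reads were split among them, or set aside as not unique, is uncertain. RBCS3B went in WT basal from 14.2 ± 4.12 at 0 h and 9.86 ± 3.6 at 8 h to 311 ± 109.7 CPM at 16 h (mean ± SD, n = 3). Its 16 h means were 128 ± 27 in ahk3 ahk4 basal, 1198 ± 43.9 in WT medial and 1106 ± 225 CPM in ahk3 ahk4 medial, and it rose from 8 to 16 h in all 3 (2.08 ± 0.29, 2.91 ± 0.29 and 1.6 ± 0.28, adjusted p at most 0.000178). Copies differed in when they came up. RBCS1B was almost absent from both basal series at 0 h, at 0.305 to 0.718 CPM in WT and 0 to 1.47 CPM in ahk3 ahk4. It already stood at 703, 385 and 462 CPM in ahk3 ahk4 medial at 8 h and at 746, 773 and 674 CPM at 16 h, and that step did not pass (0.40 ± 0.42, adjusted p = 0.589). In WT medial it rose from 240.0, 190.3 and 105 to 729.8, 762 and 656 CPM (2.07 ± 0.43, adjusted p = 0.00103). RBCS2B had 1 count in all of ahk3 ahk4 basal at 0 h and 45.9, 62.6 and 36.9 CPM at 16 h (1189-fold by counts, 95% interval 213 to 46992, counting error only).

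After Rubisco, PRK (AT1G32060) makes the acceptor of carbon dioxide, GAPA-2 (AT1G12900) and GAPB (AT1G42970) are subunits of the reducing enzyme, FBA1 (AT2G21330) and FBA2 (AT4G38970) are aldolases, and SBPASE (AT3G55800) acts in rebuilding the acceptor. FBA2 was at 26.4, 14.1 and 20.0 CPM in WT basal at 8 h and 169, 253 and 178 at 16 h. It was at 132, 139.6 and 48.3 CPM in WT medial at 8 h and 906, 560.3 and 434 at 16 h, and at 199, 242 and 209 and then 526, 453 and 452 CPM in ahk3 ahk4 medial. The 16 h libraries lay above the 8 h ones in each of these series. PRK went in WT basal from 18.8 ± 1.68 to 5.17 ± 2.31 and then 107 ± 23.2 CPM, so that, like RBCS1A, it was lower at 8 h than at 0 h. GAPB had in WT basal 9.19 ± 3.33, 9.32 ± 4.82 and 131 ± 24.8 CPM, and FBA1 7.94 ± 0.298, 13.3 ± 7.58 and 128 ± 46.6. The levels of GAPA-2 and SBPASE at 16 h were 67.3 ± 19 and 20.5 ± 3.82 CPM in WT basal and 186 ± 50.7 and 59.8 ± 0.98 CPM in WT medial.

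Of the 10 Calvin cycle members, 9 rose from 8 to 16 h in ahk3 ahk4 basal, 9 in WT medial and 5 in ahk3 ahk4 medial, and all 10 rose against 0 h in each series. Those that did not pass from 8 to 16 h were RBCS1B in ahk3 ahk4 basal (1.33 ± 0.42, adjusted p = 0.0607), FBA1 in WT medial (1.07 ± 0.39, adjusted p = 0.0515), and RBCS1B, RBCS2B, PRK, GAPA-2 and SBPASE in ahk3 ahk4 medial. The log2 fold changes of these 5 ran from -0.04 ± 0.41 to 0.93 ± 0.32. From 8 to 16 h 2.7% of all genes tested rose in ahk3 ahk4 basal, 10.4% in WT medial and 5.04% in ahk3 ahk4 medial. Against 0 h the shares of all genes were 24.7%, 21.3% and 19.2%. At 16 h all 10 Calvin cycle members had WT medial libraries wholly above WT basal ones, at 2.24 to 3.86 times the mean. Among all genes tested 17.1% lay wholly above and 27.6% wholly below. The WT basal libraries chose the members, so this is a description with no test. The calls of GAPA-2 and FBA2 in ahk3 ahk4 basal were lost without ahk3 ahk4 basal 8 h replicate 1 or 2 or ahk3 ahk4 basal 16 h replicate 2 (adjusted p up to 0.0749). The call of FBA1 in ahk3 ahk4 basal was lost without ahk3 ahk4 basal 8 h replicate 1 or 2 or 3 or ahk3 ahk4 basal 16 h replicate 1 or 2 (adjusted p up to 0.202). The call of SBPASE in ahk3 ahk4 basal was lost without ahk3 ahk4 basal 8 h replicate 2 or 3 or ahk3 ahk4 basal 16 h replicate 1 (adjusted p up to 0.126). The FBA1 call in ahk3 ahk4 basal was also lost with no filter (adjusted p = 0.0743). The call of RBCS2B in WT medial was lost without WT medial 8 h replicate 3 or WT medial 16 h replicate 2 (adjusted p up to 0.119). The call of FBA2 in ahk3 ahk4 medial was lost without ahk3 ahk4 medial 8 h replicate 1 or ahk3 ahk4 medial 16 h replicate 1 (adjusted p up to 0.0897). Some members that did not pass from 8 to 16 h did so under an alternative. FBA1 in WT medial passed with RLE size factors (adjusted p = 0.0483), with the replicate block (adjusted p = 0.0278), without the WT basal libraries (adjusted p = 0.0363) and with DESeq2 (adjusted p = 0.0256). RBCS1B in ahk3 ahk4 basal passed with DESeq2 (adjusted p = 0.0119). SBPASE in ahk3 ahk4 medial passed with the replicate block (adjusted p = 0.0369) and with DESeq2 (adjusted p = 0.0336). PRK in ahk3 ahk4 medial passed with DESeq2 (adjusted p = 0.0363).

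**Figure D3:**
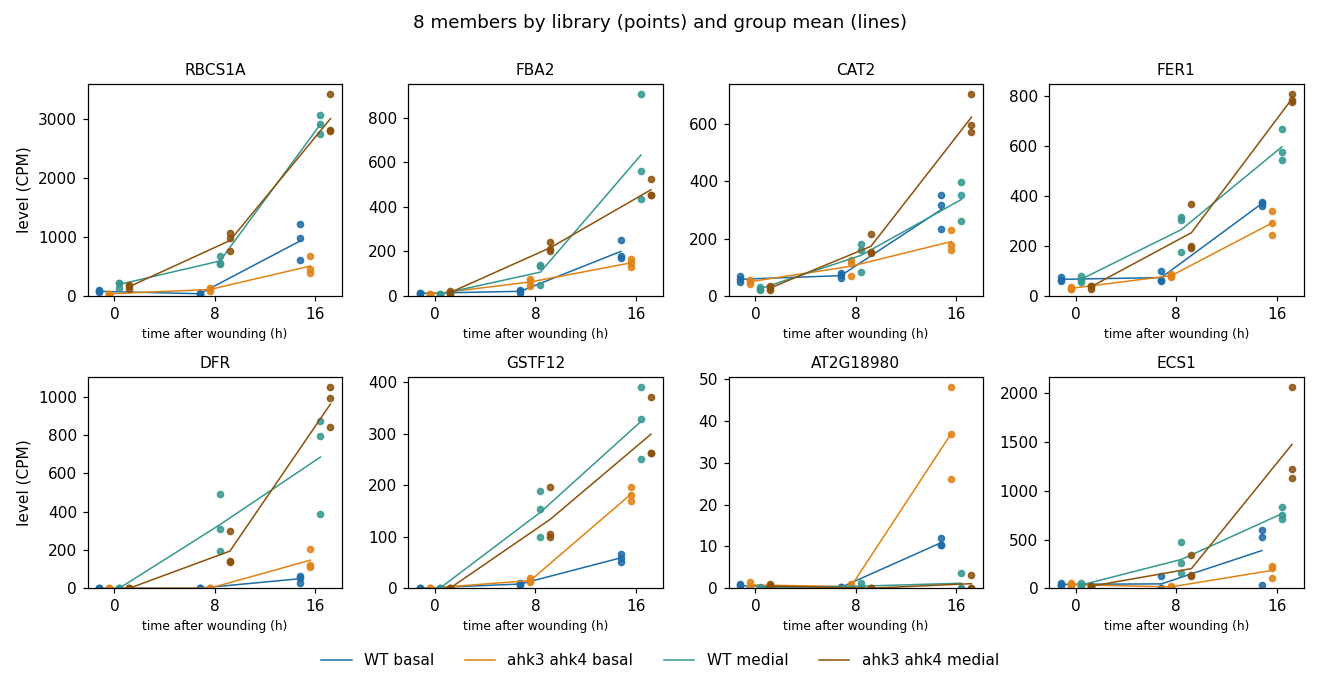
Level in CPM of 8 members against time after wounding (0, 8 and 16 h); points are libraries, shifted sideways by series, and lines join the means of the 3 libraries of a group. RBCS1A, FBA2, CAT2 and FER1 were above their 8 h level at 16 h in all 4 series, DFR and GSTF12 were near 0 at 0 h in all 4, AT2G18980 was up in basal segments, and ECS1 was spread widely in WT basal at 16 h (37.2 to 597 CPM).

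A further 6 members are chloroplast proteins, not counting the plastid ferritin FER1. PORC (AT1G03630) is a late, light-stable enzyme of chlorophyll synthesis, CAB3 (AT1G29910) an antenna protein of photosystem II, NdhO (AT1G74880) a subunit of the chloroplast NAD(P)H dehydrogenase, PRXQ (AT3G26060) a peroxiredoxin, and CRB (AT1G09340) and CSP41A (AT3G63140) RNA-binding proteins. From 8 to 16 h their median log2 fold change was 0.33 in ahk3 ahk4 basal and 0.72 in WT medial, below those of the Calvin cycle members (1.65 and 1.97), and 1.51 in ahk3 ahk4 medial, above theirs (0.98). PORC was at 7.45, 17.4 and 13.4 CPM in WT basal at 8 h and 44.1, 57.7 and 69.3 at 16 h. In WT medial it was already at 95.2, 108 and 103 CPM at 8 h and at 111, 133 and 157 at 16 h, and in ahk3 ahk4 basal at 34.3, 38.9 and 30.9 and then 37.2, 62.1 and 20.177. The times overlapped in ahk3 ahk4 basal, and the change did not pass in any of the 3 series (0.12 ± 0.40, 0.41 ± 0.39 and 0.51 ± 0.39, adjusted p at least 0.446). NdhO did not pass from 8 to 16 h in any of them either, and its means at 16 h were 11.6 ± 2.41 CPM in WT basal, 3.8 ± 1.84 in ahk3 ahk4 basal, 18.8 ± 3.01 in WT medial and 33.2 ± 5.27 in ahk3 ahk4 medial.

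CAB3, of a family with near-identical copies, was higher at 16 h than 8 h in WT basal (3.42, 3.46 and 2.99 against 20.0, 29.3 and 26.7 CPM) and rose in ahk3 ahk4 basal (2.18 ± 0.47, adjusted p = 0.00416) and medial (2.47 ± 0.44, adjusted p = 0.000354). In ahk3 ahk4 medial at 16 h replicate 1, at 219 CPM, was more than double the others at 83.3 and 95.2. PRXQ went in WT basal from 17 ± 4.49 to 70.7 ± 7.29 CPM and reached 260.4 ± 28.4 CPM in ahk3 ahk4 medial. CRB and CSP41A at 16 h were at 94.8 ± 20.7 and 29 ± 8.2 CPM in WT basal and at 348 ± 76.5 and 132 ± 7.53 in ahk3 ahk4 medial. Of the 6, 2 rose from 8 to 16 h in ahk3 ahk4 basal, 2 in WT medial (PRXQ and CSP41A) and 4 in ahk3 ahk4 medial. All 6 rose against 0 h in the 3 series, with log2 fold changes in ahk3 ahk4 medial from 2.58 to 5.65. Of all genes tested 2.7%, 10.4% and 5.04% rose from 8 to 16 h in these series, in that order. Against 0 h 24.7%, 21.3% and 19.2% of all genes rose. The call of CRB from 8 to 16 h in ahk3 ahk4 basal was lost without ahk3 ahk4 basal 8 h replicate 1 or 2 or 3 or ahk3 ahk4 basal 16 h replicate 1 or 2 (adjusted p up to 0.153). The call of PRXQ from 8 to 16 h in WT medial was lost without WT medial 8 h replicate 1 or 2 or WT medial 16 h replicate 3 (adjusted p up to 0.109). The call of NdhO against 0 h in ahk3 ahk4 basal was lost without ahk3 ahk4 basal 16 h replicate 2 (adjusted p up to 0.055). The call of CAB3 against 0 h in WT medial was lost without WT medial 0 h replicate 2 or 3 or WT medial 16 h replicate 2 or 3 (adjusted p up to 0.106). The CAB3 call against 0 h in WT medial was also lost with no filter (adjusted p = 0.0669) and without the WT basal libraries (adjusted p = 0.052).

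The mesophyll marker genes other than the member RBCS1A (LHCB1.1, LHCB2.1, LHCA4, RCA and CA1) also varied with time and region. Their summed level in WT basal was 907 to 1070.0 CPM at 0 h, 24.9 to 36.3 at 8 h and 259.7 to 479 at 16 h. In ahk3 ahk4 basal it was 513 to 548, then 32.3 to 38.1, then 121 to 232. In WT medial it was 1515 to 1964, 141 to 170.5 and 1317 to 1988, and in ahk3 ahk4 medial 1191 to 1609, 170.4 to 200.2 and 1404 to 3045. All 5 were above 0 in every group. The sum of these markers was high at 0 h and lower in every library at 8 h. In both basal series it was still below every 0 h library at 16 h. In WT basal the rule kept the members low at 0 and 8 h relative to 16 h, so a contrast with the markers there is set by the rule. In the other series the members' share of the counts was lowest at 0 h. The part of these markers in the members' levels was not tested.

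The photosynthesis list of 25 loci holds 6 members (CAB3, PORC and the 4 RBCS genes). In WT basal 23 of the 25 had at least 10 CPM at 16 h, and 15 of these had a 16 h mean below that of an earlier time. Of the list, 18 tested genes are not members. In ahk3 ahk4 basal 11 of 18 rose from 8 to 16 h and 1 fell, but against 0 h 2 rose and 10 fell. In WT medial 15 rose and 1 fell from 8 to 16 h, and 6 and 4 against 0 h. In ahk3 ahk4 medial the counts were 15 and 2, and 6 and 2. Their median log2 fold change against 0 h was -1.04 in ahk3 ahk4 basal, 0.38 in WT medial and 0.62 in ahk3 ahk4 medial, against 4.08, 4.08 and 4.38 for the 41 members. Of all genes tested 2.7% rose and 2.92% fell from 8 to 16 h in ahk3 ahk4 basal. The shares were 10.4% and 7.94% in WT medial and 5.04% and 5.81% in ahk3 ahk4 medial. Against 0 h they were 24.7% and 22.2%, 21.3% and 18%, and 19.2% and 16.1%, in the same order of series.

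A set of 3 members is peroxisomal. GOX1 (AT3G14420) is a glycolate oxidase of photorespiration, CAT2 (AT4G35090) the catalase that removes the hydrogen peroxide it makes, and PMDH2 (AT5G09660) a peroxisomal malate dehydrogenase. CAT2 was in WT basal at 46.8, 67.9 and 58.7 CPM at 0 h, 71.7, 61.5 and 78 at 8 h and 233, 352 and 319 at 16 h. It was at 177.1, 161 and 230.4 CPM in ahk3 ahk4 basal at 16 h, 352, 396 and 262 in WT medial and 704, 571 and 597 in ahk3 ahk4 medial. The mutant basal libraries were all below the WT basal ones, and the mutant medial libraries all above every other 16 h library. GOX1, which has a near-identical copy among its relatives, went in WT basal from 11.4 ± 3.33 to 113 ± 26.4 CPM and reached 396 ± 61.8 CPM in ahk3 ahk4 medial. PMDH2 was at 10.8, 5.05 and 6.89 CPM in ahk3 ahk4 basal at 0 h and 9.29, 11.7 and 15.7 at 16 h, and neither its change from 0 h (0.73 ± 0.38, adjusted p = 0.113) nor from 8 h (0.89 ± 0.38, adjusted p = 0.178) passed there. In WT basal it went to 25.8, 45.6 and 46.7 CPM at 16 h, above all 3 mutant basal libraries. In both medial series all 3 peroxisomal members rose from 8 h and from 0 h, CAT2 by 3.67 ± 0.26 log2 against 0 h in WT and 4.42 ± 0.26 in ahk3 ahk4. The call of PMDH2 from 8 to 16 h in WT medial was lost without WT medial 8 h replicate 1 or WT medial 16 h replicate 3 (adjusted p up to 0.0755). The call of CAT2 from 8 to 16 h in ahk3 ahk4 basal was lost without any 1 of the 6 libraries (adjusted p up to 0.136).

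The 4 anthocyanin members were nearly without counts at 0 h in all 4 series and were lower in basal than in medial segments at 8 h. In WT basal the rule itself kept their 0 h and 8 h means low relative to 16 h. DFR (AT5G42800) and LDOX (AT4G22880) encode consecutive late enzymes of the pathway, AT4G14090 is annotated as an anthocyanidin glucosyltransferase, and GSTF12 (AT5G17220) is the glutathione transferase of anthocyanin transport. DFR was at 0, 0.446 and 0 CPM in WT basal at 8 h and 29, 65.3 and 54.8 at 16 h. The ahk3 ahk4 basal libraries had 0.539, 0 and 0.162 and then 206, 111 and 123 CPM. In WT medial it was already at 193, 494 and 309 CPM at 8 h and at 386, 874 and 795 at 16 h, and in ahk3 ahk4 medial at 299.8, 144 and 138 and then 993, 842 and 1052. At 8 h every medial library was thus more than 100 times every basal one, and at 16 h every medial library was above every basal one, and every ahk3 ahk4 basal library above every WT basal one.

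LDOX was at 13.9, 22.6 and 24.5 CPM in WT basal at 16 h, 74.7, 55.5 and 59.2 in ahk3 ahk4 basal, 258, 509 and 384 in WT medial and 318, 259 and 361 in ahk3 ahk4 medial. AT4G14090 was at 20.099, 21.3 and 27.3 CPM in WT basal, 62.7, 57 and 74.1 in ahk3 ahk4 basal, 398, 481 and 312 in WT medial and 353, 314 and 393 in ahk3 ahk4 medial. Its 16 h levels did not overlap between WT basal and any other group. GSTF12 was at 50.2, 67.1 and 59.4 CPM in WT basal, 196, 182 and 169 in ahk3 ahk4 basal, 328, 391 and 252 in WT medial and 262, 262 and 372 in ahk3 ahk4 medial. In all 4 genes the 3 ahk3 ahk4 basal libraries at 16 h lay above the 3 WT basal ones, at 2.82 to 3.1 times the WT mean, and WT medial lay at 5.49 to 18.9 times the WT basal mean. Among all genes tested 12.3% had ahk3 ahk4 basal libraries wholly above the WT basal ones and 17% wholly below. The WT basal libraries were used to choose these 4 genes, so the values carry no test. GSTF12 differed from the other 3 at 8 h. It had 8.85, 5.47 and 9.97 CPM in WT basal and 11.1, 14.3 and 19.2 in ahk3 ahk4 basal, where LDOX had at most 0.67 and AT4G14090 at most 1.22 CPM.

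All 4 rose from 8 to 16 h in ahk3 ahk4 basal. GSTF12 rose by 3.51 ± 0.29 log2 (adjusted p = 2.71e-09), AT4G14090 by 6.43 ± 0.66 log2 (adjusted p = 1.50e-07), DFR by 9.07 ± 0.75 log2 (adjusted p = 4.88e-08), and LDOX had 1 count at 8 h (2283-fold by counts, 95% interval 409 to 90207, adjusted p = 2.90e-12). In WT medial LDOX (1.87 ± 0.34, adjusted p = 0.000243), AT4G14090 (1.62 ± 0.48, adjusted p = 0.0177) and GSTF12 (1.19 ± 0.27, adjusted p = 0.00228) rose from 8 to 16 h, and DFR did not pass (1.07 ± 0.47, adjusted p = 0.117). In ahk3 ahk4 medial all 4 rose, DFR by 2.21 ± 0.48 log2 (adjusted p = 0.00473). Against 0 h, where DFR and GSTF12 had no counts in ahk3 ahk4 basal, WT medial or ahk3 ahk4 medial, folds are bounds against 3 counts over the group, and bounds and intervals cover counting error only. DFR was at least 1207-fold higher in ahk3 ahk4 basal, at least 5975-fold in WT medial and at least 9359-fold in ahk3 ahk4 medial. GSTF12 was at least 1487-fold, at least 2787-fold and at least 2883-fold higher. LDOX was at least 516-fold higher in ahk3 ahk4 basal and at least 3036-fold in ahk3 ahk4 medial. The call of AT4G14090 in WT medial was lost without WT medial 8 h replicate 1 or 2 or WT medial 16 h replicate 2 (adjusted p up to 0.0762). The AT4G14090 call in WT medial was also lost with DESeq2 (adjusted p = 0.058). The call of GSTF12 in ahk3 ahk4 medial was lost without ahk3 ahk4 medial 8 h replicate 2 or ahk3 ahk4 medial 16 h replicate 3 (adjusted p up to 0.072).

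The flavonoid and anthocyanin list of 21 loci holds 3 of the members (DFR, LDOX and GSTF12). In WT basal 10 of the 21 had at least 10 CPM at 16 h, and 5 of these had a 16 h mean below that of an earlier time. Of the 15 other tested genes of the list, 13 rose against 0 h in ahk3 ahk4 basal and 1 fell, while from 8 to 16 h 4 rose and 2 fell. In WT medial 13 rose and 0 fell against 0 h, and 1 rose and 2 fell from 8 to 16 h. In ahk3 ahk4 medial the counts were 12 and 0, and 2 and 4. Against 0 h most of these 15 genes were thus higher at 16 h in these series, and fewer were called from 8 to 16 h. Among all genes tested 2.7% rose and 2.92% fell from 8 to 16 h in ahk3 ahk4 basal. In WT medial the shares were 10.4% and 7.94%, and in ahk3 ahk4 medial 5.04% and 5.81%. Higher against 0 h were 24.7%, 21.3% and 19.2% of all genes. Changes from 0 to 8 h were not tested.

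Of the 3 peroxidases, AT2G18980 and AT5G19890 were lower in WT medial than in WT basal segments at 16 h, with no overlap. AT2G18980 was at 10.3, 10.4 and 12 CPM in WT basal at 16 h and 48.1, 26 and 36.9 in ahk3 ahk4 basal, and at most 1.02 and 1.53 CPM in any earlier library of these series. In WT medial at 16 h it was at 3.56, 0 and 0 and in ahk3 ahk4 medial at 0, 3.25 and 0 CPM. It rose in ahk3 ahk4 basal against 8 h (6.53 ± 1.55, adjusted p = 0.0127) and 0 h (5.57 ± 1.47, adjusted p = 0.00304), was higher in mutant basal than medial segments at 16 h (5.15 ± 1.42, adjusted p = 0.0087, by DESeq2 adjusted p = 0.0504), and passed in neither medial series. The call of AT2G18980 from 8 to 16 h in ahk3 ahk4 basal was lost without ahk3 ahk4 basal 8 h replicate 1 or 3 (adjusted p up to 0.0745).

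AT5G19890 was in WT basal at 2.76, 40.7 and 1.17 CPM at 0 h, 30.1, 36.6 and 62 at 8 h and 193, 320.4 and 304 at 16 h. Replicate 2 of WT stood apart at 0 h in both regions, with WT medial at 0.691, 96 and 0.517 CPM. In ahk3 ahk4 basal its 0 h libraries held no counts and its 16 h libraries 256, 361 and 212 CPM (at least 2258-fold higher, adjusted p = 3.73e-05). Medial levels at 16 h were lower, at 147, 107 and 139 CPM in WT and 181, 162 and 164 in ahk3 ahk4, all below every WT basal library, and in ahk3 ahk4 the difference between regions did not pass (0.79 ± 1.05, adjusted p = 0.625). Its change from 0 h did not pass in WT medial (1.94 ± 1.09, adjusted p = 0.168), and without replicate 2 of WT medial at 0 h it was 7.66 log2 (adjusted p = 3.21e-05). The call of AT5G19890 from 8 to 16 h in WT medial was lost without WT medial 8 h replicate 1 or 2 or 3 or WT medial 16 h replicate 1 or 3 (adjusted p up to 0.111).

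The third peroxidase, AT4G11290, had WT medial libraries just above the WT basal ones. It was at 367, 414 and 382 CPM in WT basal at 16 h, 503, 638 and 265 in ahk3 ahk4 basal, 486, 421 and 644 in WT medial and 479, 485 and 424 in ahk3 ahk4 medial. The difference between mutant basal and medial segments was 0.11 ± 0.34 log2 (adjusted p = 0.858). At 8 h it was already above 0 h in every library of all 4 series, at 72.4 to 106 CPM in WT basal and 186 to 246 in ahk3 ahk4 medial. It rose further by 16 h in ahk3 ahk4 basal (1.28 ± 0.35, adjusted p = 0.0241) and WT medial (1.86 ± 0.36, adjusted p = 0.000342). The call of AT4G11290 in ahk3 ahk4 basal was lost without ahk3 ahk4 basal 8 h replicate 1 or 3 or ahk3 ahk4 basal 16 h replicate 1 or 2 (adjusted p up to 0.19).

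Among the 15 other members FER1 (AT5G01600), a plastid ferritin that stores iron, had replicates close to each other at 16 h. It was at 99.2, 57.4 and 61.9 CPM in WT basal at 8 h and 376, 360.0 and 369 at 16 h. At 16 h it was at 337, 290.5 and 244 in ahk3 ahk4 basal, 543, 577 and 667 in WT medial and 773, 782 and 806 CPM in ahk3 ahk4 medial. The 4 groups did not overlap, with ahk3 ahk4 basal lowest, then WT basal, WT medial and ahk3 ahk4 medial. It rose from 8 to 16 h in all 3 tested series (1.76 ± 0.23, 1.23 ± 0.23 and 1.54 ± 0.23, adjusted p at most 0.000169) and was lower in mutant basal than medial segments (-1.36 ± 0.23, adjusted p = 2.25e-05). BCAT4 (AT3G19710), an aminotransferase at the entry of methionine-derived glucosinolate synthesis, was at 16.2, 17.4 and 13.4 CPM in WT basal and 58.6, 45.2 and 43.9 in ahk3 ahk4 basal, all mutant libraries above all WT ones. In WT medial it was at 110.3, 125 and 139 and in ahk3 ahk4 medial at 105, 98.6 and 149.6 CPM. It rose from 8 to 16 h by 3.14 ± 0.48, 3.4 ± 0.48 and 2.71 ± 0.46 log2 in ahk3 ahk4 basal, WT medial and ahk3 ahk4 medial (adjusted p at most 0.00021). With 0 counts in ahk3 ahk4 medial at 0 h it was at least 1136-fold higher there at 16 h.

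The glucosinolate and camalexin list of 23 loci has BCAT4 as its only member here. Of its 19 other tested genes 4 rose and 1 fell from 8 to 16 h in ahk3 ahk4 basal, 6 and 0 in WT medial, and 4 and 0 in ahk3 ahk4 medial. The iron list of 17 loci, with FER1 as its member, had 5 other tested genes, of which 0 rose in ahk3 ahk4 basal and 1 in each medial series from 8 to 16 h. Over the same hours 2.7% of all genes tested rose and 2.92% fell in ahk3 ahk4 basal. The shares of all genes were 10.4% and 7.94% in WT medial and 5.04% and 5.81% in ahk3 ahk4 medial. Of the remaining 23 lists, from the cell cycle and root founder genes to jasmonate and the clock, none holds a member.

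ECS1 (AT1G31580), a cell wall protein, AT5G42530 and AT2G25510, both of unknown function, were spread widely among the libraries of a group. In WT basal at 16 h ECS1 was at 37.2, 597 and 525, AT5G42530 at 9.29, 255 and 233 and AT2G25510 at 11.2, 161 and 129 CPM. Replicate 1 was under 10% of the mean of the others for each, and AT3G23550, an efflux carrier of the MATE family, did the same (1.73, 14.6 and 20.9 CPM). In ahk3 ahk4 medial at 16 h replicate 1 was the highest, with ECS1 at 2068, 1133 and 1227, AT5G42530 at 1202, 884 and 658 and AT2G25510 at 637, 278 and 310.3 CPM. Without replicate 1 the WT basal 16 h means were 561 CPM for ECS1, 244 for AT5G42530, 145 for AT2G25510 and 17.7 for AT3G23550, against 386, 166, 100.7 and 12.4 with it. Their folds carry wide errors. AT5G42530 rose from 8 to 16 h in ahk3 ahk4 basal by 6.42 ± 1.08 log2 (adjusted p = 0.000464), ECS1 by 3.64 ± 1.005 log2 (adjusted p = 0.0323) and AT2G25510 by 5.05 ± 1.18 log2 (adjusted p = 0.011). The call of ECS1 there was lost without ahk3 ahk4 basal 8 h replicate 1 or 2 or 3 or ahk3 ahk4 basal 16 h replicate 1 or 2 (adjusted p up to 0.134). The call of AT2G25510 there was lost without ahk3 ahk4 basal 8 h replicate 1 or 3 (adjusted p up to 0.0668).

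AIG1 (AT1G33960), known as a gene induced by the bacterial effector avrRpt2, had 0 or nearly 0 counts at 0 h in all series. It was at 4.43, 12 and 15.7 CPM in WT basal at 16 h, 4.2, 5.06 and 4.97 in ahk3 ahk4 basal, 15, 11.3 and 8.63 in WT medial and 53.1, 20.6 and 62.2 in ahk3 ahk4 medial. It rose from 8 to 16 h in all 3 tested series (3.29 ± 0.73, 3.57 ± 0.68 and 5.65 ± 0.73, adjusted p at most 0.00603). AIR3 (AT2G04160), a subtilisin-like protease known as auxin-induced, and AT1G26420, a berberine bridge enzyme-like oxidase, were higher in basal than in medial WT segments at 16 h. AIR3 was at 16.5, 20.176 and 18.4 CPM in WT basal and 5.96, 8.92 and 2.88 in WT medial, and AT1G26420 at 14.7, 13 and 15.4 and 7.29, 5.75 and 2.21. The mutant basal levels of AIR3, 14.2, 17.2 and 24.3 CPM, and of AT1G26420, 19.6, 18.1 and 13.3, overlapped those of WT. In ahk3 ahk4 medial AIR3 was at 17.9, 6.38 and 7.44 CPM, overlapping the mutant basal libraries, and AT1G26420 at 8.95, 10.8 and 7.32, below them. Neither difference between the mutant regions passed. AT3G22060, of a receptor-like kinase related family, was at similar levels in all 4 groups at 16 h, from 39.1 to 74.1 CPM, and rose from 8 to 16 h by 2.45 ± 0.43, 2.57 ± 0.44 and 1.86 ± 0.42 log2 (adjusted p at most 0.0035). The remaining 5, AT1G23205 (a pectin methylesterase inhibitor-like protein), AT4G21870 (an HSP20-like chaperone), AT2G29180, AT3G22210 and AT4G16410, had WT basal 16 h means between 13.2 and 29.2 CPM and higher means in WT medial, from 43.7 to 77.5 CPM. The call of AIR3 from 8 to 16 h in ahk3 ahk4 basal was lost without ahk3 ahk4 basal 8 h replicate 3 (adjusted p up to 0.0779).

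At 16 h most members were higher in medial than in basal segments of both genotypes. In ahk3 ahk4 29 of 41 were lower in basal segments and 1 higher, where 13% of all genes tested were lower and 13.5% higher, with a members' median of -2.16 log2. All 10 Calvin cycle members (-3.1 to -1.56), all 6 other chloroplast members (-3.09 to -2.16) and all 3 peroxisomal ones were lower in basal segments. So were DFR (-2.65 ± 0.49, adjusted p = 0.000347), AT4G14090 (-2.39 ± 0.49, adjusted p = 0.000561) and LDOX (-2.24 ± 0.35, adjusted p = 1.45e-05), while GSTF12 did not pass (-0.64 ± 0.26, adjusted p = 0.0737). The lowest were AT5G42530 (-3.90 ± 0.85, adjusted p = 0.00129), PMDH2 (-3.74 ± 0.40, adjusted p = 1.30e-08) and AIG1 (-3.18 ± 0.62, adjusted p = 0.000355), and the 1 higher was AT2G18980. The share of reads aligned to more than 1 place was 2.98% to 15.1% in these basal and 19.9% to 30.7% in these medial libraries, and its part in the difference was not tested. Markers of some other cell types also differed between the regions at 16 h. The 7 endodermis markers (CASP1 to CASP5, MYB36 and ESB1), all above 0 in every group, summed to 86.8 to 117 CPM in ahk3 ahk4 basal and 1747 to 1977 in ahk3 ahk4 medial, and to 169.5 to 271 in WT basal and 2256 to 3005 in WT medial. At 8 h their sums were 667 to 988 in ahk3 ahk4 medial and 488 to 853 in WT medial, below the 16 h ones, and 61.9 to 102 and 212 to 369 in the basal series. In ahk3 ahk4 the 6 phloem markers summed to 27.8 to 39.3 CPM in basal and 58.1 to 81.3 in medial segments at 16 h, and the 6 guard cell markers to 0.634 to 2.48 and 8.6 to 9.45, with SPCH and MUTE at 0 in the basal ones. In WT the phloem sums overlapped, at 60.6 to 87.2 and 59.5 to 76.3, and the guard cell sums were 0.54 to 1.6 and 4.72 to 7.93. Sums of the 6 xylem markers overlapped in both genotypes. They were 50.2 to 63.8 and 47.4 to 88.8 in ahk3 ahk4 and 69.2 to 134 and 73.5 to 152 in WT. The part of these markers in the members' difference was not tested. Leaving out 1 library kept 28 of the 30 calls. The call of ECS1 here was lost without ahk3 ahk4 basal 16 h replicate 1 or 2 or 3 or ahk3 ahk4 medial 16 h replicate 1 (adjusted p up to 0.0838). The call of BCAT4 here was lost without any 1 of the 6 libraries (adjusted p up to 0.142). The BCAT4 call here was also lost with no filter (adjusted p = 0.0828).

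In WT the same comparison holds the libraries of the rule and is a description. WT medial libraries lay wholly above WT basal ones for 32 of 41 members and wholly below for 4, where 17.1% of all genes tested lay wholly above and 27.6% wholly below. The 4 below were AT5G19890, AT2G18980, AIR3 and AT1G26420. The ratio of means had a median of 2.54 over members and of 0.844 over the 9664 loci of at least 10 CPM in WT basal. At 8 h the WT medial mean was above the WT basal 16 h mean for 17 of the 41 members, near the 37.3% of the 9664 loci for which it was. The 17 include the 4 anthocyanin members and the 6 other chloroplast members.

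**Figure D4:**
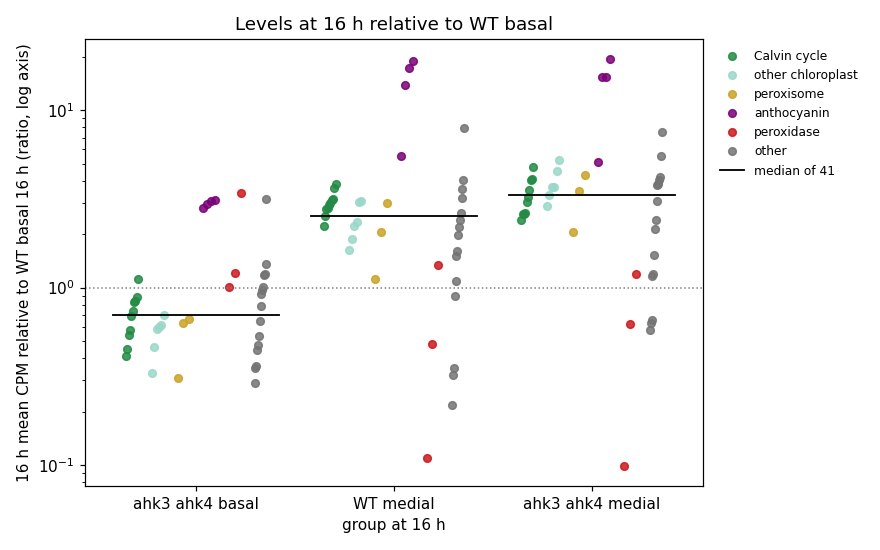
Ratio of each member's mean CPM at 16 h in ahk3 ahk4 basal, WT medial and ahk3 ahk4 medial to its mean in WT basal at 16 h, on a log axis; points are members, coloured by role, and black lines are medians of the 41. The medians were 0.699, 2.54 and 3.33, the 4 anthocyanin members lay above 1 in all 3 columns, and AT2G18980 was the highest peroxidase in ahk3 ahk4 basal and the lowest in both medial groups.

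In the mutant basal segments at 16 h most members overlapped the WT basal libraries. The ahk3 ahk4 libraries lay wholly below the WT ones for 11 members and wholly above for 6, with 24 overlapping, where 17% of all genes tested lay wholly below and 12.3% wholly above. The share of members wholly above was near that of all genes tested. The 6 above were the 4 anthocyanin members, BCAT4 and AT2G18980, at 2.82 to 3.39 times the WT mean. The 11 below were RBCS3B, FBA1, FBA2, CRB, PRXQ, CAB3, NdhO, CAT2, PMDH2, FER1 and AT3G22210, at 0.31 to 0.789 times. The median ratio was 0.699 over members and 0.927 over the 9664 loci. These values set other groups against the WT basal libraries that chose the members, so they carry no test.

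In medial segments at 16 h few members passed between genotypes. Of 41 members 1 was higher in ahk3 ahk4 and 1 lower, near the 1.51% and 1.81% of all genes tested. CAT2 was higher (0.78 ± 0.23, adjusted p = 0.049) and AT4G21870 lower (-1.26 ± 0.34, adjusted p = 0.0319), at 31.9, 33.6 and 37.9 CPM in ahk3 ahk4 against 68.1, 82.2 and 77.7 in WT. The calls of CAT2 and AT4G21870 were lost without any 1 of the 6 libraries (adjusted p up to 0.215). The CAT2 call was also lost with no filter (adjusted p = 0.0596), with the replicate block (adjusted p = 0.0555) and without the WT basal libraries (adjusted p = 0.0877). The AT4G21870 call was also lost without the WT basal libraries (adjusted p = 0.0668). The log2 differences of all 41 ran from -1.26 to 1.85.

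The change from 8 to 16 h was compared between genotypes in medial segments. It was smaller in ahk3 ahk4 for 5 of 41 members and larger for 0, where 6.91% of all genes tested had a lower and 4.21% a higher change. The 5 were AT4G21870 (-2.79 ± 0.48, adjusted p = 0.000422), AT4G16410 (-1.89 ± 0.58, adjusted p = 0.0307), GAPA-2 (-1.75 ± 0.56, adjusted p = 0.0394), FBA2 (-1.61 ± 0.42, adjusted p = 0.0112) and RBCS3B (-1.31 ± 0.39, adjusted p = 0.0258). AT4G21870 went from 18.4, 20.3 and 16.2 to 68.1, 82.2 and 77.7 CPM in WT medial and from 82.4, 38.8 and 35.9 to 31.9, 33.6 and 37.9 in ahk3 ahk4 medial, where it was high at 8 h and the times overlapped. RBCS3B stood at 8 h at 166, 164 and 155 CPM in WT and 375, 283 and 367 in ahk3 ahk4, so the smaller change followed a higher 8 h level. The call of AT4G16410 was lost without WT medial 8 h replicate 1 or 2 or ahk3 ahk4 medial 8 h replicate 1 or WT medial 16 h replicate 2 or 3 or ahk3 ahk4 medial 16 h replicate 1 or 2 or 3 (adjusted p up to 0.232). The call of GAPA-2 was lost without WT medial 8 h replicate 2 or 3 or ahk3 ahk4 medial 8 h replicate 1 or WT medial 16 h replicate 1 or 2 or ahk3 ahk4 medial 16 h replicate 2 or 3 (adjusted p up to 0.141). The call of FBA2 was lost without WT medial 16 h replicate 1 (adjusted p up to 0.0533). The call of RBCS3B was lost without WT medial 8 h replicate 2 or ahk3 ahk4 medial 8 h replicate 1 or ahk3 ahk4 medial 16 h replicate 2 or 3 (adjusted p up to 0.0649). The GAPA-2 call was also lost with no filter (adjusted p = 0.0843) and without the WT basal libraries (adjusted p = 0.0739).

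Within ahk3 ahk4 the change from 8 to 16 h was larger in basal than in medial segments for 6 of 41 members and smaller for 0, where 2.63% of all genes tested had a larger and 1.97% a smaller change. The 6 were the anthocyanin members LDOX (8.74 ± 0.80, adjusted p = 1.07e-07, resting on 1 count in basal segments at 8 h), DFR (6.86 ± 0.88, adjusted p = 0.000264), AT4G14090 (4.14 ± 0.79, adjusted p = 0.00425) and GSTF12 (2.46 ± 0.38, adjusted p = 0.00061), with RBCS2B (2.17 ± 0.60, adjusted p = 0.0333) and AT4G21870 (1.92 ± 0.48, adjusted p = 0.0194). GSTF12 went from 11.1, 14.3 and 19.2 to 196, 182 and 169 CPM in basal and from 197, 106 and 99 to 262, 262 and 372 in medial segments. The members' median was 0.32. The call of RBCS2B was lost without ahk3 ahk4 basal 8 h replicate 1 or 3 or ahk3 ahk4 basal 16 h replicate 1 or 2 or ahk3 ahk4 medial 8 h replicate 1 or ahk3 ahk4 medial 16 h replicate 2 or 3 (adjusted p up to 0.168). The call of AT4G21870 was lost without ahk3 ahk4 basal 8 h replicate 3 or ahk3 ahk4 basal 16 h replicate 1 or ahk3 ahk4 medial 8 h replicate 1 or ahk3 ahk4 medial 16 h replicate 1 (adjusted p up to 0.118). The RBCS2B call was also lost with no filter (adjusted p = 0.0618) and without the WT basal libraries (adjusted p = 0.0581).

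The same rule applied to the other series chose 48 loci in ahk3 ahk4 basal, 83 in WT medial and 63 in ahk3 ahk4 medial. Of the 41 members, 17 were among the 48 (41.5% of the members and 35.4% of the 48), 10 among the 83 (24.4% and 12%) and 9 among the 63 (22% and 14.3%). AT2G25510 and BCAT4 met it in all 4 series. A level of at least 10 CPM and 4 times the 0 h mean (each mean plus 0.5) was reached at 16 h by 32 members in ahk3 ahk4 basal, 33 in WT medial and 37 in ahk3 ahk4 medial, and at 8 h by 12, 18 and 33. The rule itself kept WT basal low at 8 h, so no such count is set beside them for that series. The members lie on all 5 chromosomes, 12 on chromosome 1, 5 on 2, 8 on 3, 7 on 4 and 9 on 5. In the TAIR10.1 annotation 15 of the 41 overlap a locus on the opposite strand, and no source used here says whether reads were counted by strand, which leaves their counts uncertain. The 15 are PORC, CRB, PRK, AIR3, AT2G29180, GOX1, BCAT4, AT3G22210, AT3G23550, CSP41A, AT4G14090, AT4G16410, CAT2, FER1 and GSTF12. The highest group means of such partners were 134 CPM for RANGAP1 beside CSP41A, 131 CPM for AT3G14430 beside GOX1 and 107 CPM for AT3G23540 beside AT3G23550, and for the partners of FER1, BCAT4 and AIR3 they were under 0.2 CPM.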

How the data were processed

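The authors deposited 1 table of raw read counts per gene for each of the 36 libraries. Per the submitters' processing notes the tools included HTSeq and DESeq2. Aligner, genome build, annotation and strand setting: not given in the sources used here. Each table ends in 5 lines that name no gene, which held 4.59% to 62.2% of the reads in a library and stayed out of totals and tests. Reads aligned to more than 1 place are among them, so genes with near-identical copies are undercounted to an unknown degree.

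CPM were computed over the plain total of the 32833 gene loci. Counts of all 36 libraries were fitted together, 1 mean for each of the 12 groups (24 residual degrees of freedom), with edgeR 4.0.16 in R 4.3.3, using TMM scaling, its filter on low counts by group, the quasi-likelihood test and Benjamini-Hochberg adjustment over the 19819 genes tested, at a threshold of 0.05. The 41 members all passed the filter, which some may have done through WT basal at 16 h. The 10 comparisons without WT basal libraries were tested, and each fold change is given with its SE. The procedure was tested on simulated data. Alternatives were DESeq2 1.42.0, other size factors, no filter, a replicate block, a fit without the WT basal libraries and each library left out in turn. No pair of replicates agreed within sampling noise (lowest chi-square per degree of freedom 9.31 over 36 pairs). Folds against groups without counts were set against 3 counts over the group, and counting intervals are exact 95% intervals that cover counting error only.

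The members and the 27 gene lists were chosen with earlier results of these data known. Members named are the 15 highest in WT basal at 16 h, the 10 with the largest ratios, those in a list, the 3 highest and 3 lowest called in each comparison and those next to the limits. Others, and the grouping of members by role, were chosen after their values were seen. Of 558 list names 515 matched a locus. Names, neighbours and overlaps come from NCBI's annotation of TAIR10.1, which may not be the one used for counting, so no coordinates or sequences are given. Tables were handled with Python 3.11.15, pandas 2.3.3 and scipy 1.17.1, and plots drawn with matplotlib 3.10.9.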

Additional observations from a re-analysis of the deposited data

Results flagged for a closer look

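The change from 8 to 16 h in medial segments differed between genotypes for 5 members by a test of the difference itself (edgeR's quasi-likelihood interaction term, Benjamini-Hochberg adjusted over all genes), all 5 with a lower change in ahk3 ahk4, where 6.91% of all genes tested had a lower and 4.21% a higher change. Of the 5 calls 1, that of AT4G21870, held in every fit that left out 1 library. The ahk3 ahk4 change minus the WT change was -2.79 log2 for AT4G21870, -1.89 for AT4G16410, -1.75 for GAPA-2, -1.61 for FBA2 and -1.31 for RBCS3B.

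Within ahk3 ahk4 the change from 8 to 16 h differed between regions for 6 members by the same kind of test, all 6 with a larger change in basal segments, where 2.63% of all genes tested had a larger and 1.97% a smaller change. The basal change minus the medial change was 8.74 log2 for LDOX, which had 1 count over the 3 basal libraries at 8 h, 6.86 for DFR, 4.14 for AT4G14090 and 2.46 for GSTF12, all of anthocyanin formation. It was 2.17 for RBCS2B and 1.92 for AT4G21870, whose calls were lost in some fits without 1 library, while the other 4 held in all of them. The 2 tests share the ahk3 ahk4 medial libraries.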

How the results depend on the processing

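The number of members was 41 under the rule, 78 with a limit of at least 3 times, 35 with CPM over TMM-adjusted totals, 36 with 1 added to the means and 34 to 45 when 1 WT basal library was left out. Members called moved in 3 of the 10 comparisons. From 8 to 16 h in ahk3 ahk4 basal 29 became 18 to 32 when 1 library was left out. For ahk3 ahk4 against WT in medial segments at 16 h, 2 became 1 with no filter, 1 with the replicate block, 0 without the WT basal libraries, 4 with DESeq2 and 0 in every fit without 1 library. For the medial genotype by time difference 5 became 10 with DESeq2 and 2 to 6 without 1 library. The cause of these shifts was not tested. In the other 7 comparisons counts stayed within 1.5 times under every alternative run.

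Same-numbered replicates had correlations of deviations between -0.154 and 0.200 over 8 comparisons, and in none were all above 0.1, so the numbers were not taken to pair samples. With the replicate block the members called were 28, 40, 30, 39, 26, 40, 1, 30, 6 and 6, in the order ahk3 ahk4 basal, WT medial and ahk3 ahk4 medial (each 16 h against 8 h, then 0 h), genotype, region, genotype by time and region by time. Of 5002 single-gene results under alternatives 4768 kept their side of the threshold, 178 lost the call and 56 gained one. Direction was compared only for results called in the main fit or in the alternative, and 0 of these changed direction. Genes with few counts at 0 or 8 h are limited by depth.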
